A study of Mus musculus with 11 samples.

Results

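The comparison described here is that of gene transcripts in Dnmt3C KO testes with those in wild-type (WT) testes at postnatal day 5 (P5). Its members were the 3 Dnmt3C KO libraries and the 2 WT libraries of the 11 libraries in the series, taken by the genotype in their labels, and the gene rows of the count table that holds both genotypes. That table has 31209 genes, of which 20784 had enough counts to be tested, beside 1073 transposable element (TE) subfamilies that are used here only as context. Poly-A RNA of whole testes was sequenced. The Dnmt3C KO mice are homozygous for a constitutive null allele, so that DNMT3C is missing from every cell, and the WT mice carry intact Dnmt3C. The other 6 libraries were used for one purpose, a second look at the same deletion: 3 from Nrf1 cKO mice, in which a floxed Nrf1 allele is removed in germ cells by a Cre driven by the germ cell gene Ddx4 (Vasa-Cre), over an Nrf1 null allele, and 3 from double knockout (dKO) mice, which carry the Nrf1 cKO and the Dnmt3C deletion together. All 4 groups are of the same age and tissue.

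DNMT3C is a rodent-specific de novo DNA methyltransferase that arose by duplication of Dnmt3b. In fetal male germ cells, the piRNA pathway guides it to the promoters of young retrotransposons, among them the long terminal repeats (LTRs) of intracisternal A particles (IAP) and of MMERVK10C elements, whose LTRs belong to the RLTR10 group. An LTR is a promoter in itself, and an annotated transcript of a host gene can start inside one.

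Total counts were between 31288561 and 39365841 per library in these 5 libraries, and TE subfamilies took between 2.2% and 3.069% of them. Replicates differed by more than sampling noise, with a chi-square per degree of freedom of 13.9 to 48.1 over pairs of the same genotype, the highest between the 2 WT libraries. Both germ and somatic cells were present: the germ cell gene Ddx4 stood between 56.1 and 85.6 CPM (counts scaled to the library total, per 1e6) and the 26 Sertoli cell markers together between 7278 and 9705 CPM. In such bulk samples, fewer cells of a type and less RNA per cell cannot be told apart. The labels do not tie replicates to animals of separate litters, and p-values measure the spread between these libraries.

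The LTR sequences that bear on the results come first. RefSeq (GRCm38.p6) gives promoter windows of 300 bases, from 250 bases before to 50 bases after a gene's start, for 32851 genes, leaving out those on 1 chromosome that is not used here, and 46 of these starts lie in an IAP or RLTR10 LTR of the same strand. Among them, 6 belonged to genes tested here. The windows of 3 are printed 5′ to 3′ to show 3 different LTR types beside their different levels: Gm15389, a long non-coding RNA among the genes that led the comparison, starts in an RLTR10B2 copy; Gm40518, which was not among the leading genes, starts in an IAPLTR2a copy; and AA388235, whose level hardly differed, starts in an IAPLTR2_Mm copy. Capitals mark the bases that lie in the LTR copy. The windows are chr1:107686750-107687049 (+ strand), chr9:48158699-48158998 (- strand) and chr17:33981242-33981541 (+ strand).
Gm15389: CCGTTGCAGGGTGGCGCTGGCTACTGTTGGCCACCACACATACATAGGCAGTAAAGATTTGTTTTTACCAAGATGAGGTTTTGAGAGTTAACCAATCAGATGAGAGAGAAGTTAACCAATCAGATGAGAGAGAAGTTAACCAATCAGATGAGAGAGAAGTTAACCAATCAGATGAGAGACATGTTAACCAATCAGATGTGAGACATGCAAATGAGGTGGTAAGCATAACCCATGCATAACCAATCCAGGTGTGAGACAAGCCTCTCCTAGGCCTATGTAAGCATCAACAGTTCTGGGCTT
Gm40518: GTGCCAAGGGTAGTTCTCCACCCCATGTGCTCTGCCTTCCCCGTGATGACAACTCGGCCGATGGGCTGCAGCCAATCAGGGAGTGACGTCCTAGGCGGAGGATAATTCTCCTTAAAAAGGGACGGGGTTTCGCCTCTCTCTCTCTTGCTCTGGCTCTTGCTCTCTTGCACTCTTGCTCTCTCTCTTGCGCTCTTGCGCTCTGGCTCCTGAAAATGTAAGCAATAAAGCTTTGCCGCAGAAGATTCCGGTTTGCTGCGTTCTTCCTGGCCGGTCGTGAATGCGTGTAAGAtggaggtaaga
AA388235: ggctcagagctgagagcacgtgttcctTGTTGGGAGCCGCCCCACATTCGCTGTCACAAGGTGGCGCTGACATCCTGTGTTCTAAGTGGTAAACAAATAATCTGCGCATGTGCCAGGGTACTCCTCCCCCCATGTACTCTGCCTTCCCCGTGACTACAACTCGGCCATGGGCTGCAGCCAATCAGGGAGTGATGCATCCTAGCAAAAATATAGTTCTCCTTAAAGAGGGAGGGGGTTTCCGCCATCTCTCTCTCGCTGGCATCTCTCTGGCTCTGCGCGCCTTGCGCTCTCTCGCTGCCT
The window of Gm15389 holds 2 CpG sites, against 15 in that of Gm40518 and 13 in that of AA388235. The letters CCAAT, on either strand, occur in 78.3% of the 46 windows that start in such an LTR and in 37.4% of all windows, and they occur in all 3 printed here. GCGCATG, on either strand, 7 letters of the motif bound by the transcription factor NRF1, occurs in 17.4% of the 46 windows and in 3.91% of all, and of the 6 tested genes only AA388235 holds it. The full palindromic NRF1 motif, of which these letters are a part, is in 0 of the 46 and in 0.971% of all windows.

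Across all genes, no gene passed the test in Dnmt3C KO against WT. By edgeR's quasi-likelihood test, 0 genes had a Benjamini-Hochberg adjusted p under 0.01, and 0 had one under 0.05. At an unadjusted p under 0.05, 537 of the 20784 genes were higher in Dnmt3C KO (2.58%) and 493 were lower (2.37%). The DESeq2 Wald test called 14 genes higher (0.0588% of the 23813 with an adjusted p) and 3 lower (0.0126%). The median log2 fold change over all genes was 0.01. In the following, genes are therefore described by their level in each library, and a gene said to be called is called by DESeq2 only.

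The deleted gene itself did not separate the groups. Dnmt3c (chr2:153696652-153729907) was low at this age, at 4.2 and 4.94 CPM in WT and at 3.03, 3.93 and 4.57 CPM in Dnmt3C KO. The groups overlapped, with a log2 fold change of -0.25 ± 0.28 (SE), so the counts on this gene do not check the genotype. Which part of the gene the allele lacks was not analysed here. The libraries did differ in some of the retrotransposons on which DNMT3C acts. Counts on the MMERVK10C-int subfamily were 84.8 and 83 CPM in WT and 404, 194 and 244 CPM in Dnmt3C KO (adjusted p = 0.205 by edgeR and 1.11e-08 by DESeq2). The groups were also apart for IAPEz-int, with a log2 fold change of 1.19. They overlapped for the LTR subfamilies RLTR10 (-0.28) and RLTR10A (0.35).

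The other methyltransferase genes overlapped between the groups. Dnmt1, which maintains methylation after replication, was at 247 and 164 CPM in WT and between 170 and 190 CPM in Dnmt3C KO. Dnmt3a, the main de novo enzyme of imprints in the male germline, was at 246 and 153 CPM in WT and between 178 and 195 CPM in Dnmt3C KO. For both genes all 3 Dnmt3C KO values lay between the WT values. Dnmt3b had a log2 fold change of 0.02 ± 0.22 (SE). Dnmt3l, the catalytically inactive cofactor needed for methylation in prospermatogonia, was under 1 CPM in all 5 libraries. Of 22 genes of the methylation machinery, 6 lay above 0 and 16 below, with a median log2 fold change of -0.15, 0 higher at an unadjusted p under 0.05 and 2 lower, where 2.58% and 2.37% of all genes were. One of the 2 was Tet2, an enzyme that oxidises 5-methylcytosine, at 49.5 and 58.9 CPM in WT against 36.9, 35 and 43.6 CPM in Dnmt3C KO (adjusted p = 0.788).

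Several of the genes that led the higher direction were nearly silent in WT. Of the 12 with the smallest p, 7 were under 1 CPM in both WT libraries, as were 4056 of the 20751 tested genes with coordinates, and stood between 0.451 and 4.6 CPM in Dnmt3C KO. Genes silent in WT enter the test only through the other group: at an unadjusted p under 0.05, 3.57% of the 4056 stood higher and 1.26% lower. None of the 12 passed the edgeR test, where the smallest adjusted p was 0.205.

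Gm15389 (chr1:107687008-107693514), the non-coding gene whose RLTR10B2 promoter is printed above, was at 0.0273 and 0.153 CPM in WT. In Dnmt3C KO it was at 2.25, 1.17 and 2.54 CPM, each many times the higher WT library. Its log2 fold change was 4.45 ± 0.68 (SE), with an adjusted p of 0.205 by edgeR and 2.26e-05 by DESeq2. Leaving out any 1 library moved the log2 fold change between 3.68 and 6.02, the latter without WT 2, where 1 WT count is left.

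Spag16 (chr1:69826970-70725132), which encodes a protein of the central pair of the sperm axoneme, was at 0.273 and 0.61 CPM in WT and at 3.9, 2.16 and 3.77 CPM in Dnmt3C KO. The groups did not overlap, as in 10.1% of all genes in this direction, and the log2 fold change was 2.89 ± 0.47 (SE; DESeq2 adjusted p = 9.61e-06). An annotated transcript of Spag16 starts in an IAPLTR2b copy at chr1:69831514-69831856, 4.5 kb into the gene.

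BC051019 (chr7:109712181-109723850), a protein-coding gene of the minus strand, was at 0.164 and 0.915 CPM in WT and at 4.62, 2.39 and 3.28 CPM in Dnmt3C KO. Its log2 fold change of 2.68 ± 0.59 (SE) was called by DESeq2 (adjusted p = 0.000751), and it too has a transcript start in an LTR, an RLTR10B2 copy at chr7:109720938-109721322. Without WT 2, the library with the higher of the WT levels, the value became 4.37, and without WT 1 it was 1.91.

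Clvs1 (chr4:9269293-9451691), which encodes the lipid-binding protein clavesin 1, was at 0.409 and 0.153 CPM in WT and at 2.31, 2.24 and 1.51 CPM in Dnmt3C KO (log2 fold change 2.82 ± 0.51 (SE); DESeq2 adjusted p = 0.00122). The value was 3.71 without WT 1 and 2.31 without WT 2. An IAPLTR2_Mm copy of the same strand lies in its intron at chr4:9401186-9401619. The deposited level of that copy, in TPM over all TE copies (transcripts scaled to an equal total in each library), was 0 in both WT libraries and 5.34, 4.4 and 6.35 TPM in Dnmt3C KO. By contrast, the LTR copies in which transcripts of Gm15389, Spag16 and BC051019 start were listed at 0 TPM in all 11 libraries. Gene counts pool all transcripts of a gene, so transcripts that start in these copies were not measured apart from others.

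Cdh19, which encodes a cadherin best known from glial precursors of the neural crest, was at 0.0273 and 0.183 CPM in WT and at 1.36, 1.07 and 1.42 CPM in Dnmt3C KO. Its log2 fold change was 3.6 ± 0.68 (SE; DESeq2 adjusted p = 0.00494), or 2.79 without WT 1, and 5.39 without WT 2, where 1 WT count is left. IAPLTR1_Mm copies of the same strand lie in its introns. One of them was listed at 0.47 and 0 TPM in WT and at 10.74, 0 and 15.62 TPM in Dnmt3C KO, and the neighbouring one at 10.82 TPM in the library where the first was at 0. These copies are alike, and reads can be assigned to either.

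Gm29128 had 1 count in the WT libraries together and 105 in Dnmt3C KO, where its levels were 1.3, 0.78 and 0.966 CPM. The ratio was 70, with an exact 95% interval of 12.3 to 2791 that covers counting error only. An IAPLTR2a copy of its strand lies 8.3 kb upstream and was listed at 0 TPM in WT and at 1.6, 0.6 and 1.9 TPM in Dnmt3C KO. Gm48619 had no counts in WT and was at least 14.2-fold higher in Dnmt3C KO against a floor of 3 counts over the WT group, and a same-strand IAPLTR1a_Mm copy overlaps one of its exons.

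The leading genes that were well expressed in WT differed by less, with log2 fold changes between 0.91 and 1.33. Ren1, renin, which is made in fetal and neonatal Leydig cells of the mouse, was at 51.5 and 66 CPM in WT and at 135, 127 and 110 CPM in Dnmt3C KO (log2 fold change 1.08 ± 0.17 (SE); DESeq2 adjusted p = 3.5e-06). Insl3, the Leydig cell hormone of testis descent, was at 31.7 and 47.7 CPM in WT and at 74.3, 75.2 and 83.5 CPM in Dnmt3C KO (0.97 ± 0.18 (SE)). Both genes were higher in every Dnmt3C KO library than in either WT library, as were 10.1% of all genes. Jak3, the kinase of the common gamma chain receptors, was at 31.9 and 45.2 CPM in WT and between 67.4 and 74.9 CPM in Dnmt3C KO, but its annotated span contains that of Insl3 on the same strand, and their counts cannot be told apart. Wfdc10, a whey acidic protein family gene, was at 37 and 34.6 CPM in WT and at 93.2, 63.2 and 64.1 CPM in Dnmt3C KO. Clec12b, an inhibitory C-type lectin receptor, was at 35.6 and 21.8 CPM in WT and at 92.6, 60.3 and 62.9 CPM in Dnmt3C KO. The pseudogene Gm5801 completed the 12, at 0.791 and 0.732 CPM in WT and between 2.16 and 4.6 CPM in Dnmt3C KO.

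**Figure D1:**
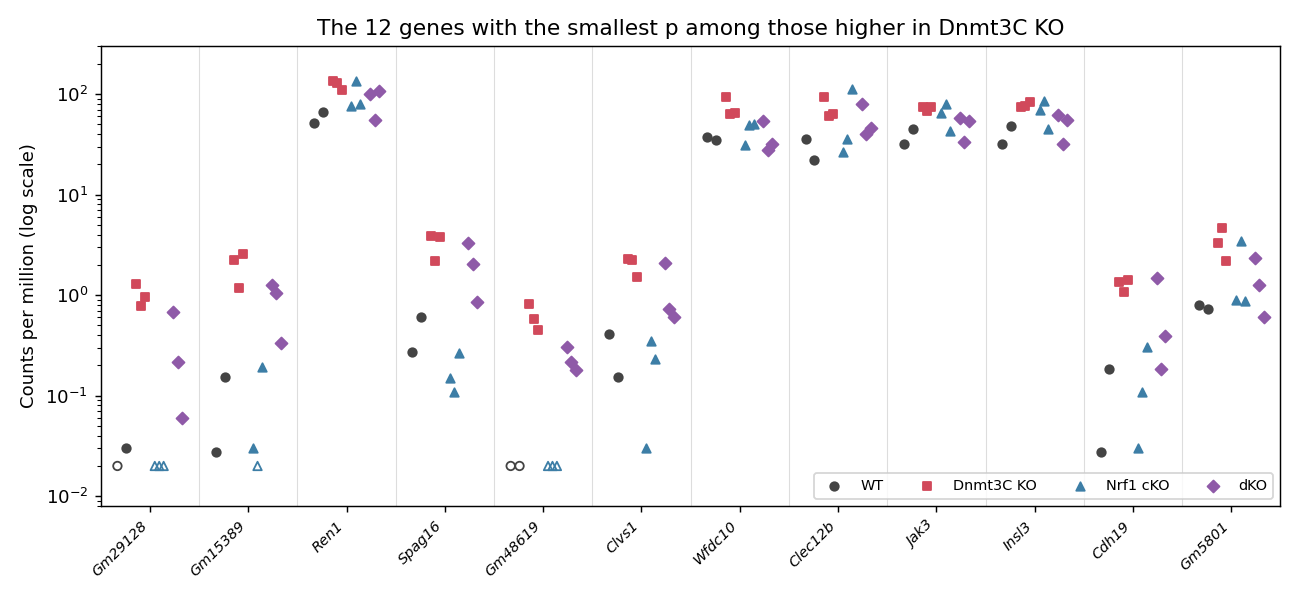
CPM (log axis) of the 12 genes with the smallest p among those higher in Dnmt3C KO, by library: WT circles, Dnmt3C KO squares, Nrf1 cKO triangles, dKO diamonds; open symbols are libraries without counts, drawn at a fixed height below the rest. The genes were chosen as higher in Dnmt3C KO, and in each the 3 Dnmt3C KO libraries lie above both WT libraries (10.1% of all genes). Gm29128, Gm15389, Spag16, Gm48619 and Clvs1 are also higher in every dKO than in every Nrf1 cKO library, as are 3.64% of genes tested there. Gm29128 and Gm48619 had no counts in Nrf1 cKO and could not be tested there.

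Whether the same genes differed where Dnmt3C was deleted on top of the Nrf1 cKO was asked with the dKO and Nrf1 cKO libraries, which share none with the main comparison. There too 0 genes passed the edgeR test, and 316 of 19554 genes were higher at an unadjusted p under 0.05 (1.62%) and 176 lower (0.9%). Of the 12 leading genes, 10 could be tested there, and they are given here by whether an LTR lies near them. The 7 with an IAP or RLTR10 LTR of their own strand in the gene or within 10 kb upstream were Gm29128, Gm15389, Ren1, Spag16, Gm48619, Clvs1 and Cdh19. Of these, 5 were tested, with a median log2 fold change of 2.47, and 4 were higher at an unadjusted p under 0.05, the exception being Ren1 at -0.13 ± 0.28 (SE). The 5 without such an LTR, all tested, lay between -0.44 and -0.08. The WT level differed along with the LTR: 6 of the 7 genes with one were under 1 CPM in both WT libraries, Ren1 being the exception, against 1 of the 5 without, and the part of each cannot be told apart. Germ cell markers were also higher in dKO than in Nrf1 cKO: the median log2 fold change was 1.02 over 7 genes of differentiating spermatogonia, 0.87 over 19 germline genes with promoters methylated in somatic tissue, 0.82 over 13 germ cell identity genes and 0.37 over 24 genes of undifferentiated spermatogonia. Ddx4 was at 38.7, 17.3 and 19.5 CPM in Nrf1 cKO and at 55.1, 51.8 and 26.8 CPM in dKO (0.82 ± 0.34 (SE)), and the part of germ cell content in the values of this comparison was not tested.

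Spag16 was at 0.15, 0.108 and 0.268 CPM in Nrf1 cKO and at 3.33, 2.05 and 0.845 CPM in dKO, a log2 fold change of 3.58 ± 0.62 (SE; adjusted p = 0.692 by edgeR). Gm15389 was at 0.0301, 0 and 0.191 CPM in Nrf1 cKO and at 1.26, 1.04 and 0.332 CPM in dKO (3.67 ± 0.94 (SE)). BC051019 was at 0.15, 0.269 and 0.191 CPM in Nrf1 cKO and at 2.91, 2.51 and 1.48 CPM in dKO, with a log2 fold change of 3.46 ± 0.45 (SE; adjusted p = 0.176). In these 3 genes every dKO library was above every Nrf1 cKO library, as was true of 3.64% of all genes tested. DESeq2 called 3 genes higher in dKO (0.00968% of those with an adjusted p): BC051019, Spag16 and Sycp1, a gene of the synaptonemal complex, and 0 lower.

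In the test of the difference between both effects, over all 11 libraries, 0 genes had an adjusted p under 0.01, and 574 of 21690 (2.65%) had an unadjusted p under 0.05 with a higher and 421 (1.94%) with a lower effect of the deletion in the Nrf1 cKO background. On the log2 scale the difference was 0.69 ± 0.8 (SE) for Spag16 and 0.78 ± 0.79 (SE) for BC051019, with edgeR adjusted p of 0.937 and 0.93, and -0.77 for Gm15389, with 0.959. It was -1.21 ± 0.38 (SE) for Ren1 and -1.41 ± 0.38 (SE) for Insl3, each with an edgeR adjusted p of 0.895. Ren1 and Insl3 did not separate Nrf1 cKO from dKO, at 75.7, 133 and 78.6 against 99.6, 55 and 107 CPM for Ren1 and at 69.5, 85.3 and 45.3 against 61.1, 31.7 and 54.6 CPM for Insl3, with overlapping groups.

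The view was then widened to 40 leading genes in each direction. Among the 40 higher genes, 14 (35%) had a same-strand IAP or RLTR10 LTR in the gene or within 10 kb upstream, against 3.79% of the genes tested. Among the 40 lower genes, 0 had one. An LTR of the opposite strand was near 7 of the 40 higher genes (17.5%) and 3 of the 40 lower genes (7.5%), against 6.58% of all. Of the 14 higher genes with a same-strand LTR, 9 could be tested in dKO against Nrf1 cKO and 7 were higher at an unadjusted p under 0.05, against 1.62% of all genes, while 3 of the 22 testable genes without one were, of which 9 lay above 0, at up to 1.68. Here too a nearly silent gene is tested only through the group that expresses it. The 7 were the testable ones with all 3 Nrf1 cKO libraries under 1 CPM, a level at which 3.16% of 2750 genes stood higher; the other 2 with an LTR and all 22 without one had an Nrf1 cKO library at 1 CPM or more, where 1.37% of 16599 did. Of the 14, 11 were under 1 CPM in both WT libraries, against 8 of the 26 without such an LTR. Among 100 leading higher genes, 18% had a same-strand and 14% an opposite-strand LTR, and among 100 leading lower genes 2% and 11%. This relation of genes to LTRs was looked for after the values were known, and the LTR families were chosen with the subfamily counts known, so shares are given with no test.

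Annotated transcript starts inside these LTRs were then counted for all genes. GENCODE M21 places a start in a same-strand IAP or RLTR10 LTR for 60 genes of the table. The mean was higher in Dnmt3C KO in 48 of the 60 and higher in WT in 12, against 16150 and 14967 of the 31117 genes with coordinates. Fitted without a filter on low counts, 16 of the 60 (26.7%) were higher at an unadjusted p under 0.05 and 0 were lower, against 2.86% and 2.28% of the 31117 genes. After the filter 28 genes were left. Of these 9 (32.1%) were higher and 0 lower, and DESeq2 called 3. A gene that is nearly silent in WT enters the test only through the group where it is expressed, so the same shares are given by WT level: with both WT libraries under 1 CPM, 8 of 13 such genes were higher, against 3.57% of 4056 genes of that level, and with a WT library at 1 CPM or more, 1 of 15, against 2.34% of 16695.

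The 9 genes were Gm15389, Clec2g, Gm36888, Spag16, Gm48161, BC051019, A230059L01Rik, Gm4316 and E330020D12Rik. Clec2g, a C-type lectin of the natural killer gene complex, with a start in an IAPLTR2a copy, had 3 counts in WT and 84 in Dnmt3C KO, a ratio of 18.7 (exact 95% interval 6.17 to 92.3), and was listed at 0 CPM in all 3 Nrf1 cKO libraries against 1.2, 0.367 and 0.151 CPM in dKO. Gm4316, with a start in an RLTR10D2 copy, was the one with a WT library above 1 CPM, at 0.9 and 1.1 CPM against 5.92, 2.08 and 2.87 CPM in Dnmt3C KO (log2 fold change 1.85 ± 0.47 (SE)). In dKO against Nrf1 cKO, 22 of the 28 could be tested and 4 (18.2%) were higher at an unadjusted p under 0.05, against 1.63% of all: Gm15389, Spag16, BC051019 and Gm4316. All 4 were among the 8 genes with every Nrf1 cKO library under 1 CPM (3.16% of all genes of that level), and 0 among the other 14 (1.37% of all). Fitted without the filter, 12 of 53 such genes (22.6%) stood higher and 1 lower, against 1.83% and 0.967% of 28947. Over the 22 genes the median was 0.04, with 13 above 0, and Ablim1, an actin-binding LIM protein gene, was lower at an unadjusted p under 0.05 (-0.51 ± 0.2 (SE)).

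An LTR start did not go with a higher gene count in every gene. Gene counts pool all transcripts, so they do not show whether the transcript that starts in the LTR differed. In Pard3, for example, that start lies 235.4 kb into the gene. AA388235, whose IAPLTR2_Mm window is printed above, was at 0.818 and 1.43 CPM in WT and at 0.664, 1.43 and 1.22 CPM in Dnmt3C KO, with overlapping groups. Gm40518 was at 0 and 0.488 CPM in WT and at 1.3, 0.832 and 0.708 CPM in Dnmt3C KO (log2 fold change 1.98 ± 0.91 (SE), unadjusted p = 0.053), higher in every Dnmt3C KO library than in both WT libraries. Its log2 fold change was 0.96 without WT 1, and without WT 2 no fold can be given, since WT 1 has no counts. It had no counts in the 3 Nrf1 cKO libraries and was at 0.644, 0.397 and 0.0603 CPM in dKO. Celf2, an RNA-binding splicing factor, stood at -0.19 ± 0.14 (SE) and Pard3, a polarity protein, at 0.02 ± 0.14 (SE). Noct, the deadenylase-like circadian gene nocturnin, was in between at 0.39 ± 0.25 (SE), with 14.7 and 9.49 CPM in WT against 20, 14.2 and 13.4 CPM in Dnmt3C KO. The IAPLTR1_Mm copy at chr3:51239968-51240386, in which a Noct transcript starts, had the highest values of the 28 copies, at 5.6 and 4.75 TPM in WT and at 31.66, 15.95 and 14.36 TPM in Dnmt3C KO.

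**Figure D2:**
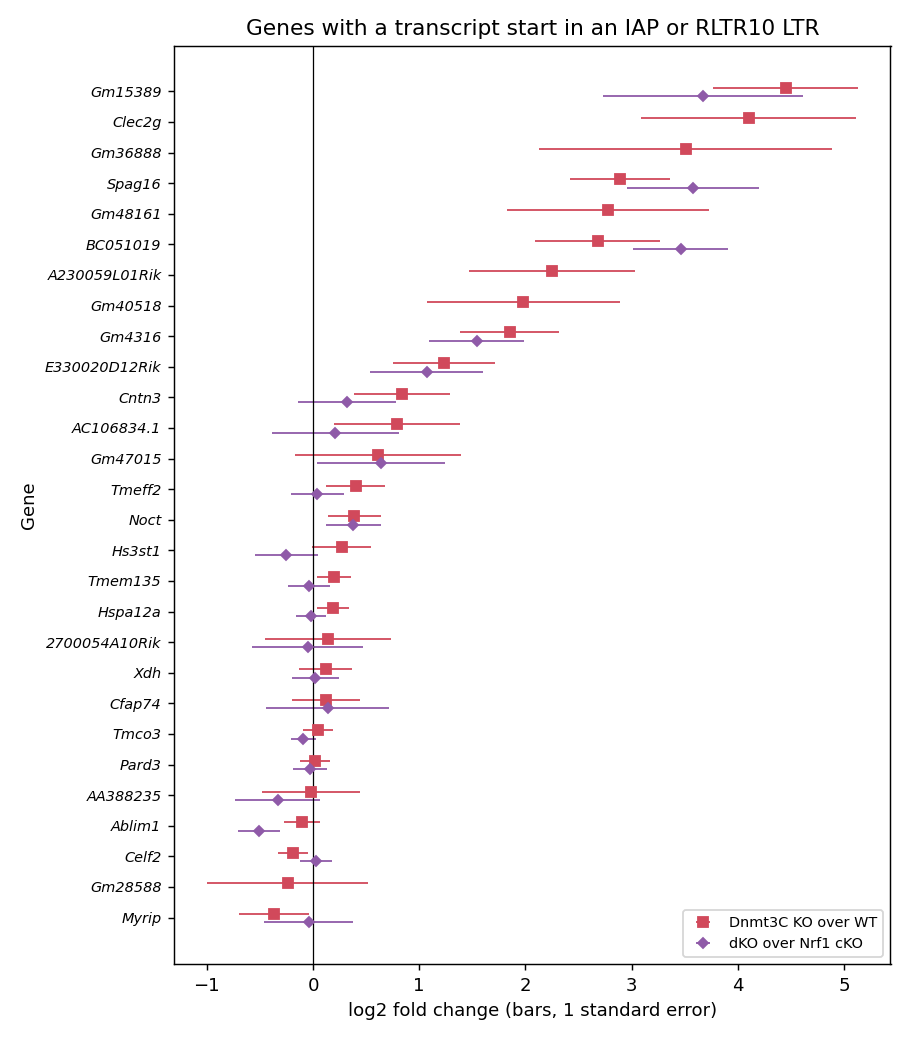
Log2 fold change (edgeR, bars 1 standard error) of the 28 tested genes with an annotated transcript start in a same-strand IAP or RLTR10 LTR, in Dnmt3C KO over WT (squares) and, for the 22 tested there, in dKO over Nrf1 cKO (diamonds). In Dnmt3C KO over WT 23 of 28 lie above 0; Gm15389, Spag16, BC051019, Gm4316 and E330020D12Rik lie above 1 in both comparisons.

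Starts in other LTRs gave lower shares, which were not split by the level in WT. Of 169 tested genes with a start in another ERVK LTR, 6 (3.55%) were higher at an unadjusted p under 0.05, and of 277 with a start in an LTR of the older MaLR group, 5 (1.81%). In dKO over Nrf1 cKO these shares were 6 of 144 (4.17%) and 5 of 249 (2.01%), against 1.63% of all. Genes with an IAP or RLTR10 LTR somewhere in the gene or within 10 kb upstream had a share of 5.54% where all such LTRs were of the same strand (596 genes), 3.23% where all were of the opposite strand (1175 genes) and 2.43% where there was none (18790 genes). The shares of lower genes were 3.02%, 3.57% and 2.23%. Over all 786 genes with a same-strand LTR, including those that also have one of the opposite strand, 5.34% were higher and 4.07% lower. The median log2 fold changes of these 3 groups were -0.01, -0.03 and 0.02, and their median gene lengths 39.4, 67.9 and 14.2 kb.

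**Figure D3:**
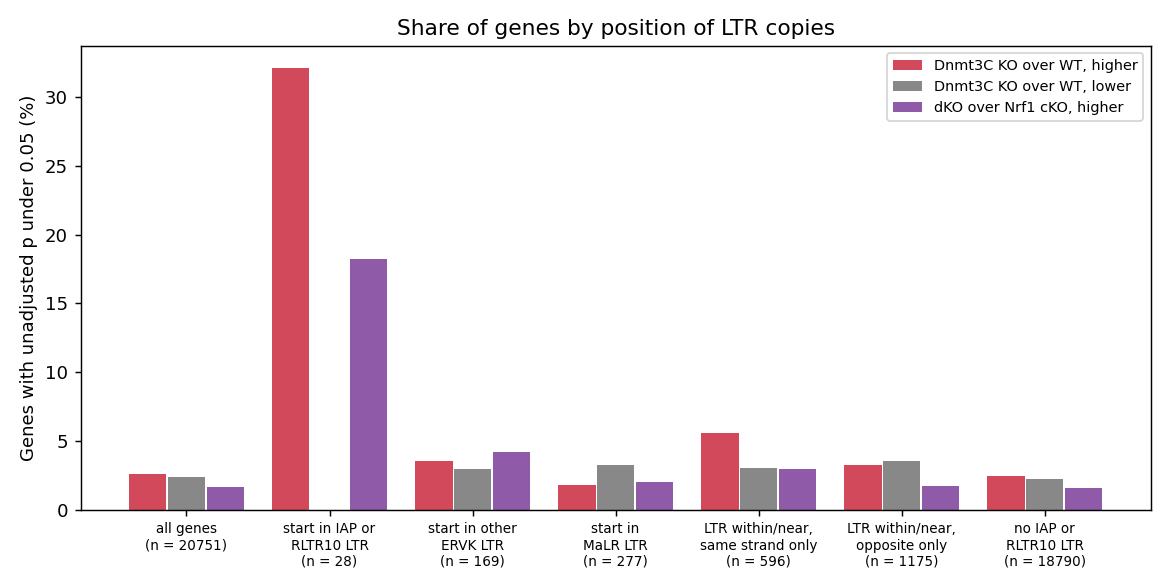
Percent of tested genes with an unadjusted p under 0.05 (edgeR), by the position of LTR copies: higher in Dnmt3C KO over WT, lower in Dnmt3C KO over WT, and higher in dKO over Nrf1 cKO; n is the number tested in Dnmt3C KO over WT. Genes that start in an IAP or RLTR10 LTR stand at 32.1% and 18.2% in the 2 comparisons, against 2.58% and 1.63% of all genes. The groups shown are not split by the level in WT or Nrf1 cKO.

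The genes lower in Dnmt3C KO were led by transcripts of blood cells. S100a9, a calcium-binding protein of neutrophils, was at 3.57 and 8.33 CPM in WT and at 0.202, 0.988 and 0.451 CPM in Dnmt3C KO (log2 fold change -3.42 ± 0.55 (SE); adjusted p = 0.205 by edgeR and 2.31e-07 by DESeq2). Ngp, neutrophilic granule protein, was at 1.12 and 1.04 CPM in WT and at 0, 0.052 and 0.0966 CPM in Dnmt3C KO (DESeq2 adjusted p = 0.00852). The stefin genes Stfa2, Stfa2l1 and Stfa3, protease inhibitors of neutrophils whose copies are so alike that counts may be shared, followed; Stfa3 had 41 counts in WT and 0 in Dnmt3C KO, at least 20.5-fold lower against a floor of 3 counts over the group. Of 13 tested genes of a neutrophil list drawn up after these values were seen, 11 were lower at an unadjusted p under 0.05 and 0 higher, against 2.37% and 2.58% of all genes, with a median log2 fold change of -3.42. The 17 listed genes summed to 16.7 and 29.1 CPM in WT and to 4.53, 7.41 and 6.18 CPM in Dnmt3C KO, without overlap. Such genes varied widely within another genotype: in Nrf1 cKO, S100a9 was at 11.2, 2.23 and 0.306 CPM and Ngp at 3.1, 0.108 and 0.268 CPM. The median was -2.52 without WT 2 and -3.89 without WT 1.

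A second group of blood genes was high in 1 WT library only. Slc4a1, the anion exchanger of the red cell membrane, was at 1.01 CPM in WT 1, at 31.6 CPM in WT 2 and at 1.07, 0.962 and 0.451 CPM in Dnmt3C KO, so its log2 fold change of -4.28 became -0.27 without WT 2. Of 9 tested red blood cell genes 7 were lower at an unadjusted p under 0.05, against 2.37% of all genes, with a median of -1.24 that became -0.12 without WT 2. Genes of MHC class II, which present antigen on B cells and dendritic cells, did the same: H2-Aa was at 3.46 CPM in WT 1, 88.6 CPM in WT 2 and 4.63 to 4.96 CPM in Dnmt3C KO, and the median of 10 genes went from -1.91 to 0.14 without WT 2. The summed red blood cell list was 668 CPM in WT 1 and 2218 CPM in WT 2, and between 554 and 796 CPM in Dnmt3C KO. With the neutrophil genes, these levels differ between the WT libraries themselves, and what part blood content has in the other results was not tested.

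**Figure D4:**
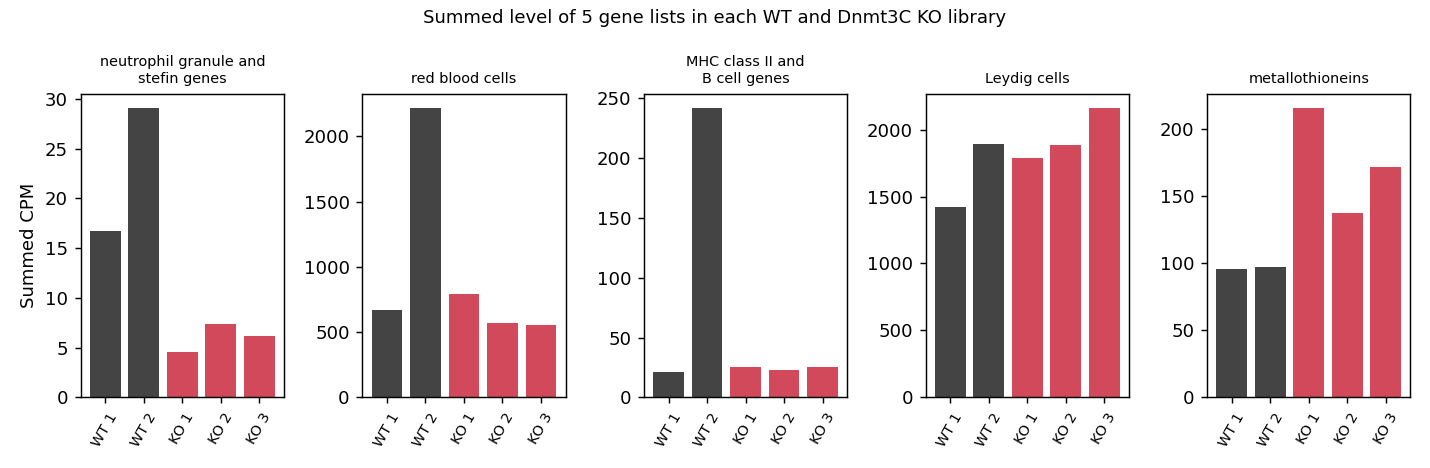
Summed CPM (bars, linear axes from 0, 1 scale per panel) of 5 gene lists in the 2 WT and 3 Dnmt3C KO libraries. Neutrophil genes are higher in both WT libraries, red blood cell and MHC class II genes only in WT 2, and metallothioneins are higher in all 3 Dnmt3C KO libraries.

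Besides 6 genes of blood cells, the 12 lower genes with the smallest p were Adamts19, Itga4, Mir100hg, Hoxd10, Hoxc10 and Myoc. Adamts19, a secreted metalloprotease gene, was at 37.5 and 45.9 CPM in WT and at 23.1, 23 and 28.5 CPM in Dnmt3C KO. Itga4, the alpha 4 integrin subunit, was at 70.7 and 93.1 CPM in WT and at 50.7, 45.4 and 54.1 CPM in Dnmt3C KO (log2 fold change -0.71 ± 0.16 (SE)). Mir100hg, the host transcript of let-7a-2 and miR-100, was at 58.1 and 56.7 CPM in WT and at 39.1, 27.6 and 32.1 CPM in Dnmt3C KO. Hoxd10 was at 31.2 and 46.1 CPM in WT and between 18.5 and 24.6 CPM in Dnmt3C KO, and Hoxc10 at 7.5 and 4.36 against 1.3 to 2.37 CPM; both are posterior Hox genes. Myoc, myocilin, was at 15.3 and 29.4 CPM in WT and at 4.04, 10.2 and 8.34 CPM in Dnmt3C KO. The groups did not overlap in any of these 6 genes, which holds for 10.3% of all genes in this direction. Of 26 tested Hox genes, a list also drawn up afterwards, 5 were lower and 1, Hoxb8, was higher at an unadjusted p under 0.05, with a median of -0.32 (-0.18 without WT 1, -0.51 without WT 2), where 2.37% of all genes were lower and 2.58% higher. In dKO against Nrf1 cKO, all 9 testable leading lower genes were again below 0 (median -0.36), 0 of them at an unadjusted p under 0.05, against 0.9% of all genes. Of the 33 testable among the 40 leading lower genes, 24 were below 0.

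The 3 tested metallothioneins, small metal-binding proteins, were listed after their values were seen. Mt1 and Mt2 were higher in all 3 Dnmt3C KO libraries than in both WT libraries, as were 10.1% of all genes. Neither Mt1 nor Mt2 passed the edgeR test (adjusted p = 0.511 and 0.51), and Mt3 overlapped (log2 fold change 0.07 ± 0.19 (SE)). Mt2 was at 42.2 and 37.3 CPM in WT and at 116, 59.8 and 84.1 CPM in Dnmt3C KO (log2 fold change 1.12 ± 0.24 (SE); DESeq2 adjusted p = 0.0019), and Mt1 at 39 and 44.2 CPM against 86.8, 58.7 and 72.2 CPM (0.8 ± 0.18 (SE)). In dKO over Nrf1 cKO, Mt2 stood at 0.92 ± 0.36 (SE; unadjusted p = 0.0319) and Mt1 at 0.38 ± 0.27 (SE). The remaining DESeq2 calls were Aldh3a1, an aldehyde dehydrogenase, at 8.07 and 4.36 CPM in WT and 26.2, 12.9 and 17.7 CPM in Dnmt3C KO, and Gm1673, at 9.43 and 11.4 CPM against 16.8 to 21.6 CPM.

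Of the 7 lists of germ cell genes 6 had a median above 0, with few single genes apart; of all genes, the share past an unadjusted p of 0.05 was 2.58% upwards and 2.37% downwards. Of 25 genes of undifferentiated spermatogonia 9 lay above 0 and 16 below, with a median of -0.17 that was 0.17 without WT 1 and -0.25 without WT 2. Nanos3, an RNA-binding protein that keeps germ cells alive, was higher at 9.81, 4.83 and 6.47 CPM in Dnmt3C KO against 3.63 and 3.02 CPM in WT (1.08 ± 0.33 (SE), adjusted p = 0.788). Ret, the receptor for GDNF, was lower at 20.5 to 22.7 CPM against 35.5 and 27.6 CPM (-0.55 ± 0.16 (SE)). All 8 genes of differentiating spermatogonia lay above 0 (median 0.56), none at an unadjusted p under 0.05. They summed to 117 and 88.1 CPM in WT and to 188, 95 and 117 CPM in Dnmt3C KO, the highest again in Dnmt3C KO 1. The median was 0.28 over 13 germ cell identity genes, 0.14 over 24 genes of the piRNA pathway, in which Rnf17 (0.55 ± 0.24 (SE)) and Tdrkh (0.44 ± 0.19 (SE)) were higher at an unadjusted p under 0.05, and 0.18 over 31 genes of meiotic chromosomes. Of the 19 germline genes whose promoters are methylated in somatic tissue, all lay above 0, with a median of 0.39, none of them at an unadjusted p under 0.05. The spermatid list had the largest median, 1.2 over 4 tested genes, which was 0.23 without Dnmt3C KO 1 and 0.52 without Dnmt3C KO 3. Odf1, a sperm tail protein gene, was at 0.0545 and 0.0915 CPM in WT and at 0.346, 0.338 and 0.225 CPM in Dnmt3C KO, and Tnp1, a transition protein gene, at 0.109 and 0.061 against 0.606, 0.104 and 0.515 CPM, both higher at an unadjusted p under 0.05. The summed level of the methylated-promoter and piRNA lists was highest in 1 library: the 19 genes summed to 712 and 676 CPM in WT and to 1024, 672 and 791 CPM in Dnmt3C KO, and the 24 piRNA pathway genes to 484 and 460 CPM in WT and to 690, 428 and 452 CPM in Dnmt3C KO. The Dnmt3C KO 1 library was the highest in both, and the other two Dnmt3C KO libraries lay on either side of the WT range for the 19 genes and below it for the piRNA pathway. The same library was the highest of the 3 for Mt1, Mt2, Wfdc10, Clec12b, BC051019 and Gm29128, and the part of germ cell content in those values was not tested.

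Lists of retrotransposon control and of responses to it held few genes apart, to be read against 2.58% of all genes in the higher direction and 2.37% in the lower. Of 27 genes of H3K9 methylation and retrotransposon repression, 2 had an unadjusted p under 0.05, both lower in Dnmt3C KO: Tasor of the HUSH complex (-0.45 ± 0.16 (SE)) and the chromatin remodeller Atrx (-0.35 ± 0.15 (SE)). The median was -0.08. Of 37 tested genes of the interferon response and of viral nucleic acid sensing, 0 were higher and 1 was lower, the RNA-activated kinase Eif2ak2 (-0.4 ± 0.17 (SE)). Their median of -0.19 became 0.26 without WT 2 and -0.53 without WT 1. All 9 retroelement restriction genes lay below 0, with a median of -0.09 and none at an unadjusted p under 0.05. Of 20 p53 target and apoptosis genes 1 was higher, Bax, an effector of apoptosis (0.31 ± 0.13 (SE)), and 1 lower, Plk2 (-0.43 ± 0.14 (SE)), with a median of 0.03. The 27 proliferation genes had a median of -0.09 and none at an unadjusted p under 0.05, and of the two-cell stage genes, 3 had counts and none could be tested.

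Among 30 imprinted genes 4 were lower at an unadjusted p under 0.05 and 0 higher (median -0.14), where 2.37% of all genes were lower. Airn, the non-coding RNA of the Igf2r domain, was at 14.9 and 15.8 CPM in WT and at 9.03, 9.18 and 8.82 CPM in Dnmt3C KO, with a log2 fold change of -0.77 ± 0.18 (SE; adjusted p = 0.573). Kcnq1ot1, the non-coding RNA of the Kcnq1 domain, was at 27.8 and 20.4 against 17.8, 12.6 and 14.7 CPM, and the maternally expressed Meg3 at 689 and 739 against 583, 326 and 562 CPM. Rasgrf1, whose imprint depends on piRNAs in the male germline, was low, at 0.791 and 0.397 CPM in WT and 0.26, 0.052 and 0.0644 CPM in Dnmt3C KO. In dKO over Nrf1 cKO, Airn stood at -0.12 ± 0.22 (SE) and the list at a median of -0.03. Of 17 tested Rhox homeobox genes 1 was higher at an unadjusted p under 0.05, where 2.58% of all genes were. It was Rhox2d, at 0.409 and 0.061 CPM in WT and at 1.21, 1.25 and 0.869 CPM in Dnmt3C KO.

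The lists of somatic cell types, apart from blood, had medians between -0.48 and 0.52, and their counts are to be read against the 2.58% of all genes that were higher and the 2.37% that were lower. Of 26 Sertoli cell genes 5 were higher at an unadjusted p under 0.05 and 0 lower, with a median of 0.03; they included the cystatins Cst9 (0.58 ± 0.2 (SE)) and Cst12 (0.6 ± 0.21 (SE)). Of 10 tested Leydig cell genes 3 were higher, Ren1, Insl3 and the LH receptor gene Lhcgr (0.5 ± 0.21 (SE)), with a median of 0.23 that was 0.65 without WT 2, 0.11 without WT 1 and -0.28 in dKO over Nrf1 cKO, while the steroidogenic enzyme gene Cyp17a1 was at 177 and 389 CPM in WT and at 218, 345 and 394 CPM in Dnmt3C KO. Of 17 macrophage genes, with a median of 0.34 (0.07 without WT 1), 3 were higher, among them the complement genes C1qa and C1qc, and 1 lower, Ptprc, the pan-leukocyte marker CD45, which was at 3.54 and 7.66 CPM in WT and at 2.6 to 3.32 CPM in Dnmt3C KO (log2 fold change -0.9, or -0.23 without WT 2). The medians were 0.2 over 11 peritubular and smooth muscle genes (-0.05 without WT 2), 0.03 over 16 endothelial genes, -0.06 over 9 stromal genes, -0.25 over 8 skeletal muscle genes, 0.52 over 2 adipocyte genes (1.07 without WT 2, 0.22 without WT 1) and -0.48 over 4 genes of the epididymis and mesonephric ducts (-0.95 without WT 2, 0.68 without WT 1). Signs of library quality differed between libraries: the 13 mitochondrial mRNAs took 21838 CPM in WT 1 and 39735 CPM in WT 2, against 28166 to 35790 CPM in Dnmt3C KO. All 76 ribosomal protein genes lay above 0, with a median of 0.17 that was 0.5 without WT 2 and -0.08 without WT 1. The 8 replication-dependent histone genes, whose transcripts lack a poly-A tail, summed to 1.69 and 2.29 CPM in WT and to 2.02, 3.12 and 4.47 CPM in Dnmt3C KO, with 5 of them tested, a median of 0.86 (1.18 without WT 2, 1.16 without WT 1, 0.09 without Dnmt3C KO 3) and none at an unadjusted p under 0.05.

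**Figure D5:**
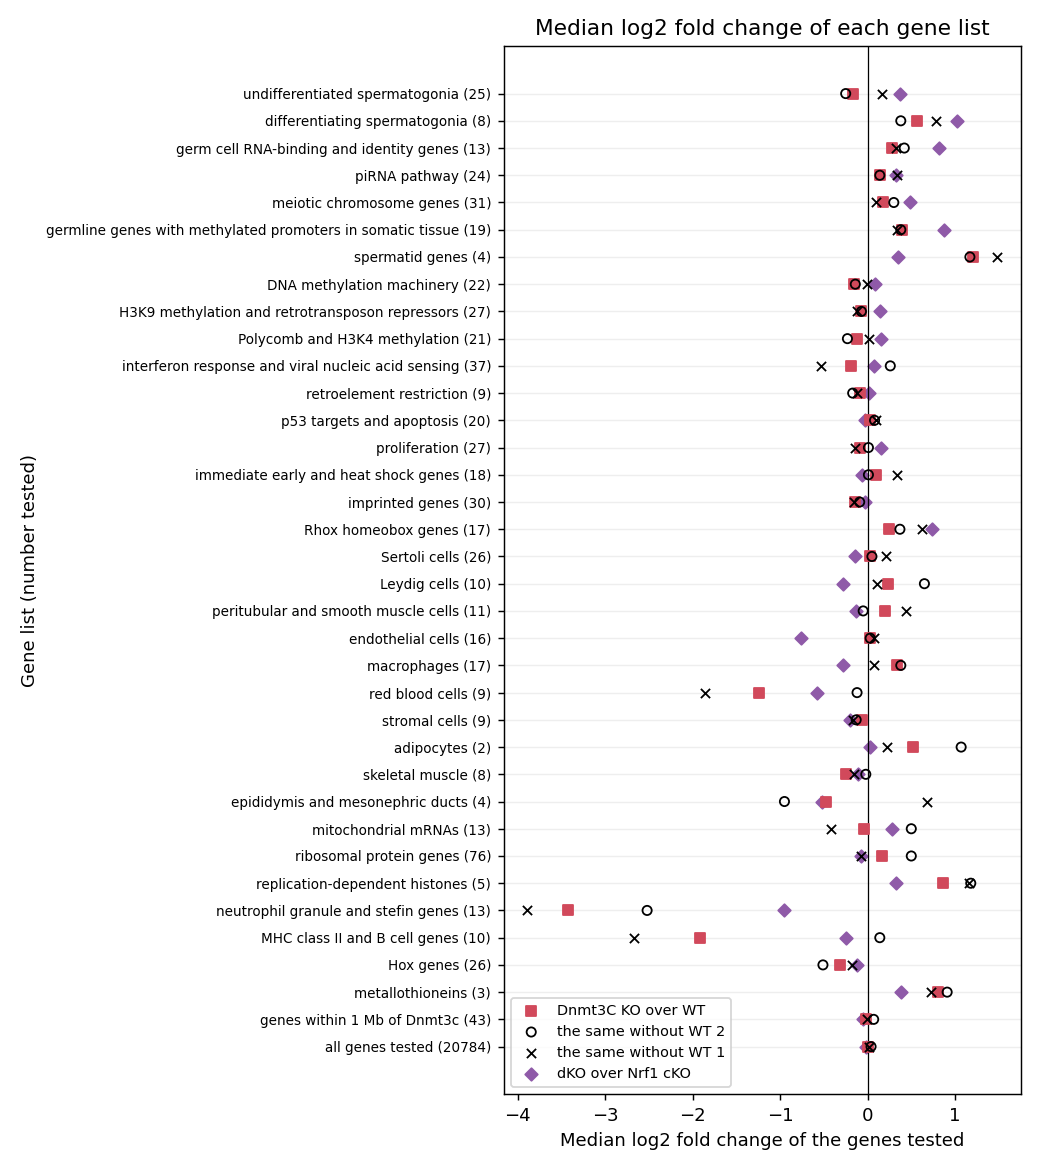
Median log2 fold change of the tested genes of each list (edgeR) in Dnmt3C KO over WT, in the same comparison without WT 2 or without WT 1, and in dKO over Nrf1 cKO; the number tested is in brackets. Neutrophil genes keep a median under -2 without either WT library, while the medians of red blood cell and MHC class II genes move to near 0 without WT 2.

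Genes around the deleted locus did not form a group. Of 43 tested genes within 1 Mb of Dnmt3c, 21 lay above 0 and 22 below, with a median of -0.02. At an unadjusted p under 0.05 1 was higher and 0 lower, where 2.58% and 2.37% of all genes were. The one at an unadjusted p under 0.05 was Cox4i2, an isoform of a cytochrome c oxidase subunit, at 1.42 and 1.28 CPM in WT and at 3.72, 2.5 and 2.83 CPM in Dnmt3C KO (1.16 ± 0.33 (SE)), and it stood at -0.57 in dKO over Nrf1 cKO.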

How the data were processed

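Poly-A libraries of whole testes (Illumina Stranded mRNA Prep) were aligned by the authors with STAR 2.7.3a to GRCm38, keeping multiply mapped reads, and raw counts per gene and TE subfamily were deposited from TEtranscripts. Reads shared by copies were thus divided between them. Per the study's methods, libraries of low RNA integrity were left out before deposit. A second deposited table, in TPM per TE copy from TElocal, was used for context. Columns with the authors' own test results from DESeq2 1.44.0 were not used.

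Counts were tested with edgeR 4.0.16 in R 4.3.3 (filterByExpr, TMM, quasi-likelihood test, fold changes at edgeR's default prior count). Log CPM values used a prior count of 1. Benjamini-Hochberg adjustment ran over genes and TE subfamilies together, with a threshold of 0.01. CPM used TMM-scaled library sizes. The fits were checked on simulated data. Alternatives were DESeq2 1.42.0, limma-voom (limma 3.58.1), other scalings and filters, a replicate block, and leaving out each library. Total counts set the precision of the exact intervals, which cover counting error only and leave out the spread between replicates. LTR positions came from the TE copy table and transcript starts from GENCODE M21, which gave coordinates to 31117 of 31209 genes; the authors' annotation is a later release.

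The members and lists were chosen with earlier results of these data known. Named were the methyltransferase genes, the 12 genes with the smallest p in each direction since none passed, up to 10 DESeq2 calls a direction, and up to 2 members of a list in each direction with the smallest p; other genes named, the neutrophil, MHC class II, Hox and metallothionein lists and the LTR groups were chosen after their values were seen. 1 gene called by DESeq2 is not reported here. RefSeq promoter windows on chromosome 18 were not used here, which holds for the counts and motif shares of such windows.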

Additional observations from a re-analysis of the deposited data

How the results depend on the processing

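No gene had an adjusted p under 0.01 in Dnmt3C KO over WT by edgeR, nor with size factors of DESeq2, limma-voom, library sizes or adjustment over genes only, 1 fit over all 11 libraries, or a threshold of 0.05. DESeq2 called 17 genes (14 higher, 3 lower), the fit without a filter on low counts 100 (51 and 49) and scaling to equal germ cell markers 60 (22 and 38), which moved the median of all genes to -0.13. The fit with the replicate block called 120 (70 and 50); the sources tie no replicate number to a litter, although littermates were used as controls where possible, and deviations of same-numbered libraries correlated at 0.18 and 0, so whether the numbers pair the samples was not settled. Leaving out 1 library gave 0 to 17 calls, the 17, all lower, without WT 1, among them 5 red blood cell and 4 MHC class II genes. Of the 24 leading genes, 22 were among the calls without the filter, 22 with the block and 13 with germ cell scaling. In dKO over Nrf1 cKO, DESeq2 called 3 genes and every other alternative run 0. In the test of the difference, leaving out 1 library gave 0 to 1 call, H2-Eb1 without WT 1. The cause was not tested.

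The sign turned in the following single genes. Dnmt3b went to -0.00 with limma-voom and to -0.16 with germ cell scaling, and with the latter Pard3 went to -0.11, Ddx4 to -0.01 and Mt3 to -0.05. Over fits without 1 library, log2 fold changes ranged from -0.36 to 0.45 for AA388235, -0.27 to 0.86 for Cyp17a1, -0.46 to 0.13 for Dnmt1, -0.40 to 0.29 for Dnmt3a, -0.22 to 0.23 for Dnmt3b, -1.06 to 0.35 for Dnmt3l, -4.20 to 0.48 for H2-Aa, -0.07 to 0.19 for Mt3, -0.23 to 0.05 for Ablim1 and -0.12 to 0.19 for Pard3. With 2 WT libraries, genes under about 1 CPM rest on few counts.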
